A study of Homo sapiens with 6 samples.

Results

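The neurexins, neuroligins and SynCAMs are cell adhesion proteins of the synapse. In the RNA-seq table of PSF-depleted SH-SY5Y cells, 9 of their genes were followed, out of 21301 genes in the table. They were taken by symbol and comprise the neurexins NRXN2 and NRXN3, the neuroligins NLGN1, NLGN2 and NLGN3, and the SynCAM genes CADM1, CADM2, CADM3 and CADM4. Other paralogues of these families were not analysed here. Among the 9 genes, CADM2, NLGN1 and CADM1 were called lower after PSF knockdown at an edgeR adjusted p under 0.05. None was called higher, and 6 did not pass the test in either direction. Of all genes tested, 8.27% were called lower and 6.65% higher. The call of CADM1 held in 2 of 6 fits that left out a library. NLGN3 lay higher in every siPSF library and was called higher by DESeq2's Wald test only.

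SH-SY5Y, a human neuroblastoma line with a sympathoadrenal character, received a control siRNA (siControl) or an siRNA against PSF (siPSF) at 10 nM, and RNA was taken 72 h later. Each group held 3 libraries, which the study calls biological triplicates. No other genotype or treatment separated the groups, and a single PSF siRNA sequence in a single cell line stands behind every siPSF value. PSF is an RNA-binding protein of the nucleus and of paraspeckles, encoded by SFPQ. The comparison asks how the transcripts of these adhesion genes differ when PSF is depleted.

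Neurexins sit on the presynaptic membrane and reach across the cleft to neuroligins on the postsynaptic side, while extracellular adaptors such as the cerebellins and competing ligands such as the LRRTM proteins share the neurexin surface. Neuroligin paralogues divide the synapse types between them: NLGN1 is found mainly at excitatory synapses, NLGN2 at inhibitory ones and NLGN3 at both. SynCAMs are immunoglobulin-domain proteins that bind one another across the cleft and recruit scaffold and actin-regulating proteins through their short cytoplasmic tails.

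Neurexin genes carry more than one promoter, the most upstream for the long alpha form and an internal one for the short beta form, so a gene-level count pools transcripts from all starts. The sequence before the outermost NRXN3 starts is therefore shown, together with that before NLGN1, which fell, and NLGN3, which had the highest fold change of the 9 genes without passing the test. The promoter set used here listed starts for 6 of the 9 genes, with 9 starts in all. It held none for NRXN2, CADM1 and CADM2, whose promoters were therefore not examined. Each sequence is the 250 bases before a start in GRCh38.p14, read 5′ to 3′ on the plus strand, and capitals mark CG dinucleotides. The windows are chr14:78170123-78170372 and chr14:79279130-79279379 for NRXN3, chr3:173395702-173395951 for the first NLGN1 start and chrX:71144591-71144840 for NLGN3.
NRXN3, first start: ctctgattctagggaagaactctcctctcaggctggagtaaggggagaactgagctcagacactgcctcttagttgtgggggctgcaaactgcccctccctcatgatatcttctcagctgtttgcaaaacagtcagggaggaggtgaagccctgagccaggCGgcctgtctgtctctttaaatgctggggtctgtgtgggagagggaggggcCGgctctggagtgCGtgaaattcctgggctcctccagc
NRXN3, last start: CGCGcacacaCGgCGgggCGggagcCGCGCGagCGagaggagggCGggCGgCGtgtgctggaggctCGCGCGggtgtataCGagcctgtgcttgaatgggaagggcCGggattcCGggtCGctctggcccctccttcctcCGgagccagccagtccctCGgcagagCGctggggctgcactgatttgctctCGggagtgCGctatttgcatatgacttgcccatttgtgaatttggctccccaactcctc
NLGN1, first start: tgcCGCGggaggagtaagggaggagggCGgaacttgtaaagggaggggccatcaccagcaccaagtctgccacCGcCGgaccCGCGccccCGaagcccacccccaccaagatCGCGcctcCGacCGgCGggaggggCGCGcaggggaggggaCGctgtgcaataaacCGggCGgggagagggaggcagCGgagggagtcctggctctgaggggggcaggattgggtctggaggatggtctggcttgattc
NLGN3: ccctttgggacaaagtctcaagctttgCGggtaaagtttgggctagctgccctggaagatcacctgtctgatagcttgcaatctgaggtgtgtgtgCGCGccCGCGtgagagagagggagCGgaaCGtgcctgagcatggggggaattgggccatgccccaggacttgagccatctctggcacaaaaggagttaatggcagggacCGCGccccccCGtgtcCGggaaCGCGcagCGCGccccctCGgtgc
The 3 NRXN3 windows differed in composition, with 3 CG dinucleotides before the first start, 5 before the start 233 kb downstream and 24 before the last, which lies 1109 kb downstream of the first. NLGN1 had 19 and 17 CG before its starts, NLGN3 16, NLGN2 2, CADM3 16 and CADM4 30. The listed starts of NLGN2 (7407845) and CADM4 (43639850) lie inside the RefSeq spans of these genes given below. The sequence before the outer 5′ end of either span was not examined. Over all 35116 listed promoters of the same length the median was 11, with quartiles of 3 and 23. A TATAAA motif on either strand stood in 10.7% of all windows and in 0 of the 9 windows of these genes.

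The libraries held between 101540520 and 132420931 counts. Levels are given as CPM, the counts scaled to library size with TMM factors, which allows a gene to be compared between libraries. Levels of different genes are compared only in the deposited FPKM, which accounts for transcript length. SFPQ measured 372, 356 and 401 CPM under siControl, against 209, 193 and 165 CPM under siPSF, and fell by 0.99 on the log2 scale (standard error 0.10, edgeR adjusted p = 9.5e-05). All 11 sympathoadrenal markers were in the table, with a summed FPKM of 1910 to 2203 in siControl and 1647 to 2089 in siPSF. Of them DBH, which makes noradrenaline, fell by 0.68 on the log2 scale (edgeR adjusted p = 0.0024), TH, near 0 in both groups at 0.220 and 0.0678 FPKM, fell by 1.20 (edgeR adjusted p = 0.025), and GATA3 rose by 0.30 (edgeR adjusted p = 0.032). Of 6 glial and Schwann cell markers 2 were in the table, with a sum of 0.667 to 0.935 FPKM in siControl and 0.640 to 1.29 in siPSF. Of 6 markers of other cell types 2 were in the table, with sums of 1.38 to 1.72 and 2.09 to 3.05 FPKM, and 1 of them, EPCAM, rose by 0.86 (edgeR adjusted p = 0.014). The part of these markers in the results below was not tested, and in bulk RNA fewer cells expressing a gene and less RNA per cell cannot be told apart.

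Across all 19694 genes tested, 8.27% were called lower and 6.65% higher at an edgeR adjusted p under 0.05, or 1628 and 1310 genes. The balance differed between fits that also differ in test, scaling and genes kept. With limma on log2(FPKM + 0.5), 1782 were called lower and 736 higher of 14830 genes. On rescaled FPKM limma called 3409 lower and 463 higher of 14827. All 9 adhesion genes entered the test, of which 3 were called lower and 0 higher. For NRXN3, NLGN1, CADM1 and CADM2 all siPSF libraries were lower than all siControl libraries, a pattern that 17.8% of all genes tested showed. The reverse order held for NLGN3 and for 16.7% of all genes tested. At an unadjusted p under 0.05 the count was 5 of the 9, where 29.8% of all genes tested passed. The median log2 fold change of the 9 genes was -0.07, against 0.01 over all genes tested.

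**Figure D1:**
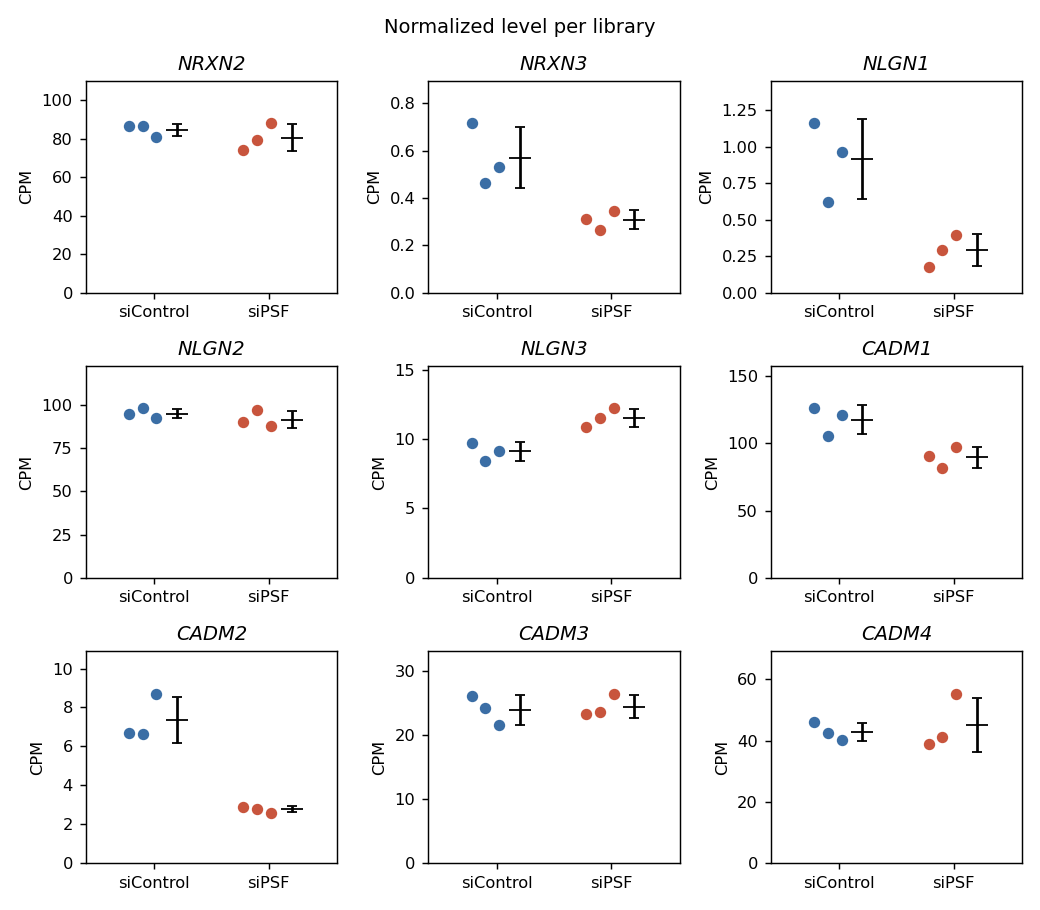
Normalized level (CPM, vertical axis from 0, with its own scale for each gene) of the 9 genes in the 3 siControl libraries (blue) and the 3 siPSF libraries (red), with the mean and SD beside each group in black. The groups are apart for NRXN3, NLGN1, NLGN3, CADM1 and CADM2, and overlap for NRXN2, NLGN2, CADM3 and CADM4.

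The neurexins are the presynaptic side of the pair. NRXN2 (gene ID 9379, chromosome 11, 64606174 to 64723197) was the neurexin at a high level. It measured 86.5, 86.8 and 81.1 CPM in siControl and 74.3, 79.3 and 88.1 CPM in siPSF, so the highest and the lowest library both belonged to siPSF. The means were 84.8 ± 3.19 and 80.6 ± 6.97 CPM (SD, n = 3), and the log2 fold change of -0.07 (standard error 0.09) did not pass the test (edgeR adjusted p = 0.62). An annotated antisense gene, NRXN2-AS1, covers 2.06% of its GENCODE exon bases, and whether counting used strand is not given in the sources used here.

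NRXN3 (gene ID 9369, chromosome 14, 78170373 to 79868291) is the longest of the 9 genes, at 1698 kb. Its counts were few, with 87, 62 and 67 reads under siControl and 37, 28 and 34 under siPSF. Scaled, these came to 0.715, 0.465 and 0.532 CPM against 0.311, 0.265 and 0.345 CPM. The groups did not overlap. A log2 fold change of -0.89 (standard error 0.28) came with an edgeR adjusted p of 0.053, just outside the limit of 0.05. In the 6 fits that left out a library the adjusted p lay between 0.051 and 0.18, so at this depth a difference in NRXN3 was not resolved by the test. The counts pool the 3 starts whose windows were described above and do not say which of them the reads came from.

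The neuroligins are the postsynaptic receptors for neurexins. NLGN1 (gene ID 22871, chromosome 3, 173395952 to 174294372), the neuroligin of excitatory synapses, had the most negative log2 fold change of the 9 genes. CADM2 was lower, however, without siControl replicate 1, without siPSF replicate 1 and in limma on log2(FPKM + 0.1) without a filter. In that limma fit the added 0.1 exceeded the FPKM of NLGN1 in every library. The libraries held 141, 83 and 121 reads in siControl and 21, 31 and 39 in siPSF, or 1.16, 0.622 and 0.961 CPM against 0.177, 0.294 and 0.396 CPM. The lowest siControl library stood above the highest siPSF library. The mean went from 0.914 ± 0.272 to 0.289 ± 0.109 CPM (SD, n = 3), so that 31.6% of the siControl mean remained. The log2 fold change was -1.67 (standard error 0.34, edgeR adjusted p = 0.0063), and NLGN1 was called in all 6 fits that left out 1 library, at -1.96 to -1.41. At a mean of 0.0481 FPKM in siControl it was nevertheless a minor neuroligin in these cells.

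NLGN2 (gene ID 57555, chromosome 17, 7404653 to 7419860), the neuroligin of inhibitory synapses, was the main one. Its level was 94.7, 98.0 and 92.5 CPM in siControl and 90.1, 97.1 and 87.7 CPM in siPSF. The groups overlapped on the CPM scale, at 95.1 ± 2.78 and 91.6 ± 4.84 CPM (SD, n = 3). In FPKM, at means of 18.1 and 16.7, the siPSF libraries all lay lower. The log2 fold change was -0.05 (standard error 0.08, edgeR adjusted p = 0.70).

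NLGN3 (gene ID 54413, X chromosome, 71144841 to 71175307) had a positive fold change, unlike NLGN1 and NLGN2. It measured 9.76, 8.40 and 9.17 CPM in siControl and 10.9, 11.5 and 12.2 CPM in siPSF, with every siPSF library above every siControl library. The means were 9.11 ± 0.680 and 11.5 ± 0.677 CPM (SD, n = 3). Its log2 fold change of 0.34 (standard error 0.11) had an edgeR adjusted p of 0.063. DESeq2's Wald test gave 0.33 with an adjusted p of 0.031, and limma gave 0.16 on log2(FPKM + 0.5), 0.19 on log2(FPKM + 0.1) and 0.07 on rescaled FPKM, with adjusted p-values of 0.32, 0.32 and 0.68. In FPKM the means were 2.08 and 2.39. Scaled to the median gene of each library, the number of counts behind 1 unit of FPKM in siPSF was 1.05 times that in siControl for this gene, without overlap between the groups.

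SynCAMs hold pre- and postsynaptic membranes together by binding each other. CADM1 (SynCAM1, gene ID 23705, chromosome 11, 115169236 to 115504415) carried the most reads of the family. It measured 126, 105 and 121 CPM in siControl and 90.5, 81.6 and 97.1 CPM in siPSF. All siPSF libraries were lower than all siControl libraries, though the nearest pair, 105 and 97.1 CPM, lay close. The mean went from 117 ± 10.7 to 89.7 ± 7.78 CPM (SD, n = 3). CADM1 fell by 0.39 on the log2 scale (standard error 0.10, edgeR adjusted p = 0.018). This call was lost when siControl replicate 1, siControl replicate 3, siPSF replicate 1 or siPSF replicate 2 was left out, with adjusted p-values of 0.063, 0.063, 0.053 and 0.069.

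CADM2 (SynCAM2, gene ID 253559, chromosome 3, 84958989 to 86074429) had the smallest p of the 9 genes. Its level was 6.68, 6.66 and 8.71 CPM in siControl and 2.90, 2.78 and 2.59 CPM in siPSF. The siPSF libraries lay in a narrow range far below the lowest siControl library. The means were 7.35 ± 1.18 and 2.76 ± 0.157 CPM (SD, n = 3), and 37.5% of the siControl mean remained. CADM2 fell by 1.41 on the log2 scale (standard error 0.15, edgeR adjusted p = 1.4e-04) and was called without each of the 6 libraries, at -1.49 to -1.28.

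CADM3 (SynCAM3, gene ID 57863, chromosome 1, 159171615 to 159203313) measured 26.1, 24.1 and 21.5 CPM in siControl and 23.2, 23.5 and 26.4 CPM in siPSF. The groups overlapped, with means of 23.9 ± 2.33 and 24.4 ± 1.77 CPM (SD, n = 3). Its log2 fold change was 0.03 (standard error 0.10, edgeR adjusted p = 0.89). The antisense gene CADM3-AS1 overlaps 36.6% of its GENCODE exon bases, and reads of the pair cannot be told apart if strand was not used. CADM4 (SynCAM4, gene ID 199731, chromosome 19, 43622368 to 43641984) measured 46.1, 42.5 and 40.2 CPM in siControl and 38.9, 41.1 and 55.3 CPM in siPSF. The highest and the lowest library were both siPSF, and the log2 fold change was 0.07 (standard error 0.13, edgeR adjusted p = 0.75). For both genes the sign turned in some of the alternative fits given at the end.

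On the FPKM scale, where genes can be compared with one another, the siControl cells held NRXN2 at 19.7, CADM4 at 18.4 and NLGN2 at 18.1 FPKM, and neighbours in this order overlapped. CADM1 followed at 13.0, CADM3 at 5.94, NLGN3 at 2.08 and CADM2 at 0.718 FPKM, each with libraries clear of the next gene. NLGN1 at 0.0481 and NRXN3 at 0.0419 FPKM closed the order and overlapped. In siPSF the first places went to CADM4 and NRXN2, at 18.3 and 18.2 FPKM with overlapping libraries, and the last to NRXN3 and NLGN1, at 0.0204 and 0.0156 FPKM, also overlapping. CADM1, at 9.37 FPKM, kept the fourth place, and CADM2, at 0.255 FPKM, the seventh. NLGN1, CADM2 and NRXN3, with the most negative log2 fold changes, therefore belonged to the lower end of the order, though NRXN3 did not pass the test. CADM1, also called lower, stood higher in it. NLGN1 and NRXN3 rest on few reads. These low genes are also the longest of those followed here, so level and length cannot be told apart.

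Shares of the summed FPKM of each family describe its composition. Of the SynCAM sum, CADM1 held 33.9%, 32.1% and 36.5% under siControl and 29.4%, 27.4% and 26.3% under siPSF. CADM2 went from a mean of 1.89 ± 0.377% to 0.761 ± 0.127% (SD, n = 3). CADM4 took 48.6%, 49.7% and 46.7% in siControl and 50.1%, 54.1% and 57.2% in siPSF, without overlap, although its own level did not pass the test. For each of these 3 shares the exact two-sided permutation p was 0.1, the smallest that 3 against 3 libraries allow. The share of CADM3, 15.6 ± 1.01% and 17.8 ± 1.94%, overlapped between the groups (exact permutation p = 0.3, n = 3). A share can move because any other member moves, so these are descriptions of composition and not of separate changes.

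Among the 3 neuroligins analysed here, NLGN2 held 89.5 ± 0.972% of the summed FPKM in siControl and 87.4 ± 1.20% in siPSF, and NLGN3 held 10.3 ± 0.888% and 12.5 ± 1.17% (SD, n = 3). NLGN1 made up 0.238% of the sum in siControl and 0.0818% in siPSF. None of the 3 shares overlapped between the groups (exact permutation p = 0.1 for each, n = 3). NRXN3 made up 0.213% of the 2 neurexins in siControl and 0.112% in siPSF, and NRXN2 the rest. The summed FPKM of each family overlapped between the groups, at means of 19.7 and 18.2 for the neurexins, 20.2 and 19.1 for the neuroligins and 38.1 and 33.9 for the SynCAMs (exact permutation p = 0.3, 0.2 and 0.3, n = 3).

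**Figure D2:**
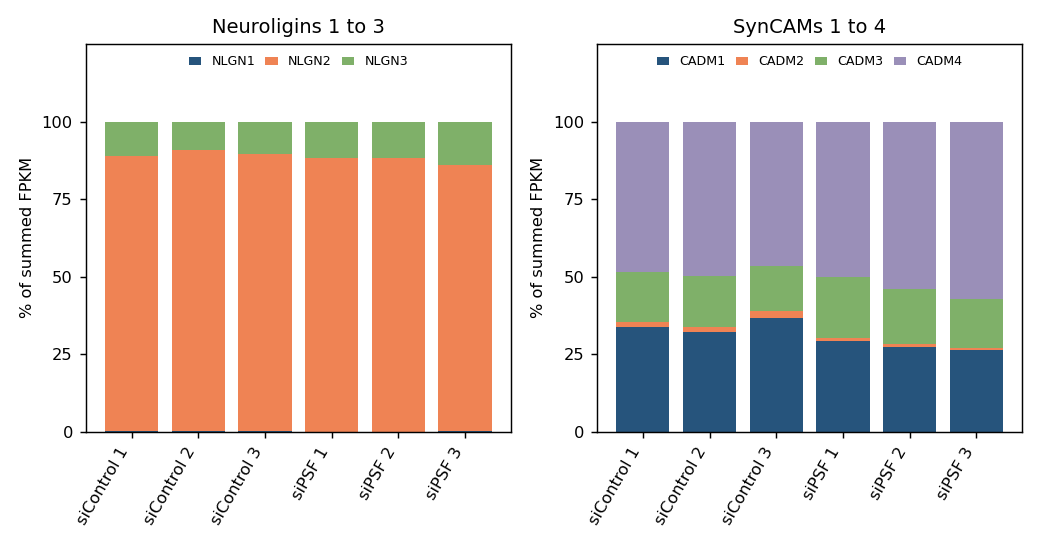
Share of the summed FPKM (%, vertical axis from 0) taken by each neuroligin (left) and each SynCAM (right) in every library, stacked to 100%. The CADM1 segment is smaller and the CADM4 segment larger in each siPSF library than in each siControl library, NLGN2 dominates the neuroligins throughout, and NLGN1 is too small to be seen.

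Ratios of paralogues within a library do not depend on how the libraries were scaled. Of 10 within-family pairs, 9 had log2 CPM ratios that did not overlap between the groups, each with an exact permutation p of 0.1 (0.11 after Benjamini-Hochberg adjustment over the 10), which is the smallest p this design allows. No pair can pass 0.05 with 3 libraries a group. The pairs reuse the same 9 genes, so a shift in 1 gene enters several ratios and the count of 9 is not one of separate results. The share of non-overlapping ratios over pairs of all genes was not computed. For single genes, 17.8% of all tested lay lower and 16.7% higher in siPSF without overlap. The log2 ratio of NLGN1 to NLGN3 was -3.07, -3.76 and -3.25 in siControl and -5.94, -5.29 and -4.95 in siPSF, a shift of -2.03. The ratio of NLGN2 to NLGN3 moved by -0.39, from a mean of 3.39 ± 0.14 to 2.99 ± 0.13 (SD, n = 3). CADM2 shifted against CADM3 by -1.44 and against CADM4 by -1.46, and CADM1 against the same genes by -0.42 and -0.44. CADM3 against CADM4 was the overlapping pair, with a shift of -0.02 (exact permutation p = 1, n = 3).

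The 9 genes differ more than 100-fold in genomic length, from 15.2 kb for NLGN2 to 1698 kb for NRXN3. The 4 genes of 300 kb or more, CADM1 (335 kb), NLGN1 (898 kb), CADM2 (1115 kb) and NRXN3, had negative fold changes with a median of -1.15, and 3 of them were called lower. Among all 615 protein-coding genes of that length tested, 47.3% were called lower and the median log2 fold change was -0.44. The 4 members under 100 kb, NLGN2, CADM4, NLGN3 and CADM3, had a median of 0.05, and none was called, where 4.64% of the protein-coding genes of that length were called lower and the median was also 0.05. NRXN2, at 117 kb, belonged to the class of 100 to 300 kb, where 18.7% were called lower and the median was -0.13. Within their own length class, NLGN1 stood at the 3.25th and CADM2 at the 6.50th percentile from the lowest log2 fold change, NRXN3 at the 24.4th and CADM1 at the 54.0th. The fall of CADM1 was thus near the middle of its class. At 335 kb it lay close to the lower bound of that class, and the class below had a median of -0.13, so its rank depends on this bound. Over the 9 genes Spearman's rho of length and log2 fold change was -0.82, given as a description, since the points share the same 6 libraries. The part of length in the change of any single gene was not tested.

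**Figure D3:**
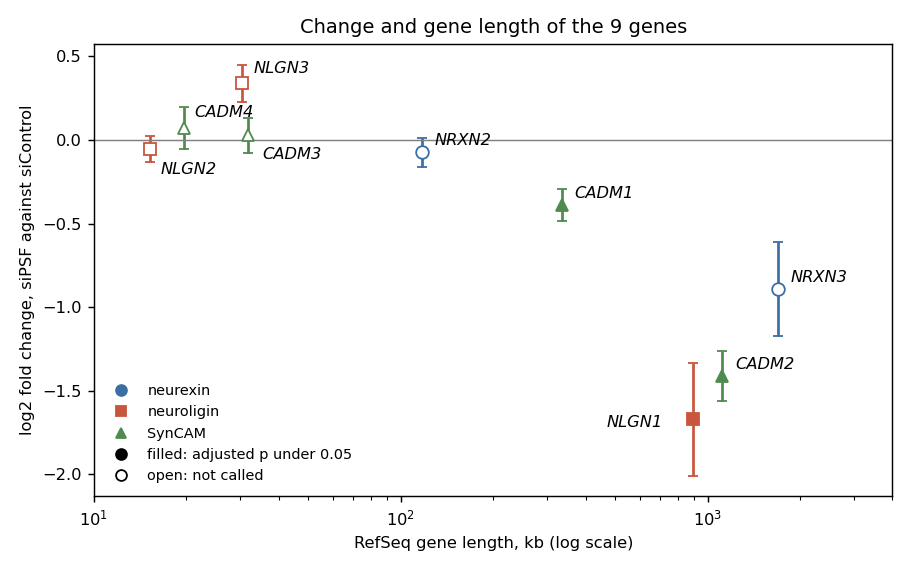
Log2 fold change of siPSF against siControl (vertical axis, with standard errors from the edgeR fit) against RefSeq gene length in kb (horizontal log axis) for the 9 genes, with the family given by shape and colour. Filled symbols mark the 3 genes with an adjusted p under 0.05, all of 335 kb or more, and of the genes under 100 kb NLGN3 is at 0.34 and the others between -0.05 and 0.07.

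Genes whose products bind these proteins or act beside them were taken from 7 lists by textbook role. Of 78 genes listed, 65 were in the table and 64 were tested, of which 13 were called lower (20.3%, against 8.27% of all genes), 6 higher (9.38%, against 6.65%) and 45 not. Their median log2 fold change was -0.03. Leaving out siControl replicate 2 reduced these counts to 7 lower and 1 higher, and leaving out siControl replicate 3 reduced the higher ones to 2. The calls over all genes fell in the same fits, to 928 lower and 572 higher without siControl replicate 2. Without siControl replicate 3 they were 1022 lower and 732 higher. In all 6 fits with a library left out, 7 of the 19 stayed called, namely CBLN2, CBLN4, CLSTN2, APBA1, FARP1, TIAM1 and NTNG2. The comparison with all genes does not take gene length into account. Of all protein-coding genes tested, 47.3% of 300 kb or more, 18.7% of 100 to 300 kb and 4.64% under 100 kb were called lower. The partner genes called lower ranged from CBLN4 at 8.16 kb to PTPRD at 2299 kb. Of the partner genes of 300 kb or more, CLSTN2, GRID1, FARP1, TIAM1, PTPRD and NTNG1 were called lower. LRRTM4, NXPH1, CASK, DLG2, MAGI2, GPHN, NTRK3 and LRRC4C, of that length too, were not called. Those called lower under 100 kb were CBLN4, LHFPL4, MPP2 and NECTIN1. The part of length in these counts was not tested.

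Extracellular partners of neurexins and neuroligins numbered 20 tested, with 4 lower, 1 higher and a median of 0.02. CLSTN2, a calsyntenin of the postsynaptic membrane, fell from 7.99 ± 1.77 to 3.44 ± 0.177 CPM (SD, n = 3), or by 1.22 on the log2 scale (edgeR adjusted p = 6.5e-04). The cerebellins, secreted bridges between neurexins and postsynaptic GluD receptors, included 2 of the fallen genes: CBLN2 at -0.86 (edgeR adjusted p = 0.0044) and CBLN4 at -1.37 (edgeR adjusted p = 0.0064), the second at no more than 1.03 CPM in any library. GRID1, which encodes such a GluD receptor, fell by 0.40 (edgeR adjusted p = 0.049) and was named after its values were seen. LRRTM2, a postsynaptic neurexin ligand, rose by 0.71 (edgeR adjusted p = 0.019), from 2.64 ± 0.136 to 4.31 ± 0.942 CPM (SD, n = 3).

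On the presynaptic side, 6 scaffold genes were tested with a median of 0.01. APBA1, which encodes Mint1, fell by 0.69 (edgeR adjusted p = 0.0044), and CASKIN1, which encodes a CASK-binding protein, rose by 0.35 (edgeR adjusted p = 0.0496). CASK itself, which binds neurexin tails, stood at -0.03 on the log2 scale (edgeR adjusted p = 0.84) and was named after its values were seen. Of 8 postsynaptic scaffold genes, with a median of -0.09, 1 was called: LHFPL4, whose product links NLGN2 to GABA receptors, fell by 0.34 (edgeR adjusted p = 0.019).

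The cytoplasmic partners of SynCAMs numbered 9, with 3 lower, 1 higher and a median of -0.13. FARP1, an exchange factor that binds SynCAM1, had the smallest p of all 64 genes. It measured 87.5, 90.5 and 83.4 CPM in siControl and 36.9, 47.1 and 39.8 CPM in siPSF, far apart, and fell by 1.08 on the log2 scale (standard error 0.10, edgeR adjusted p = 5.9e-05). TIAM1, a Rac exchange factor, fell by 0.50 (edgeR adjusted p = 0.0053) and the scaffold gene MPP2 by 0.32 (edgeR adjusted p = 0.036), while EPB41L1, of the band 4.1 family, rose by 0.36 (edgeR adjusted p = 0.018). Of 4 nectins, relatives of SynCAMs, NECTIN3 fell by 0.48 (edgeR adjusted p = 0.023) and NECTIN1 by 0.36 (edgeR adjusted p = 0.029), and the median was -0.07. The splicing factors of neurexin transcripts, KHDRBS1 (Sam68) and KHDRBS3 (SLM2), were tested as 2 genes with none called, at 0.05 and -0.43 (edgeR adjusted p = 0.76 and 0.11).

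Other trans-synaptic organizers numbered 15, with 2 lower, 3 higher and a median of 0.07. PTPRD, a receptor phosphatase of the presynaptic membrane, fell by 0.87 (edgeR adjusted p = 0.014), and the netrin-G gene NTNG1 fell by 0.55 (edgeR adjusted p = 0.024). Its paralogue NTNG2 rose by 0.72 (edgeR adjusted p = 7.2e-04), from 36.3 ± 3.46 to 59.7 ± 4.63 CPM (SD, n = 3). SLITRK6 rose by 0.47 (edgeR adjusted p = 0.028), as did LRFN1, by 0.64 (edgeR adjusted p = 0.030), which was named after its values were seen.

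**Figure D4:**
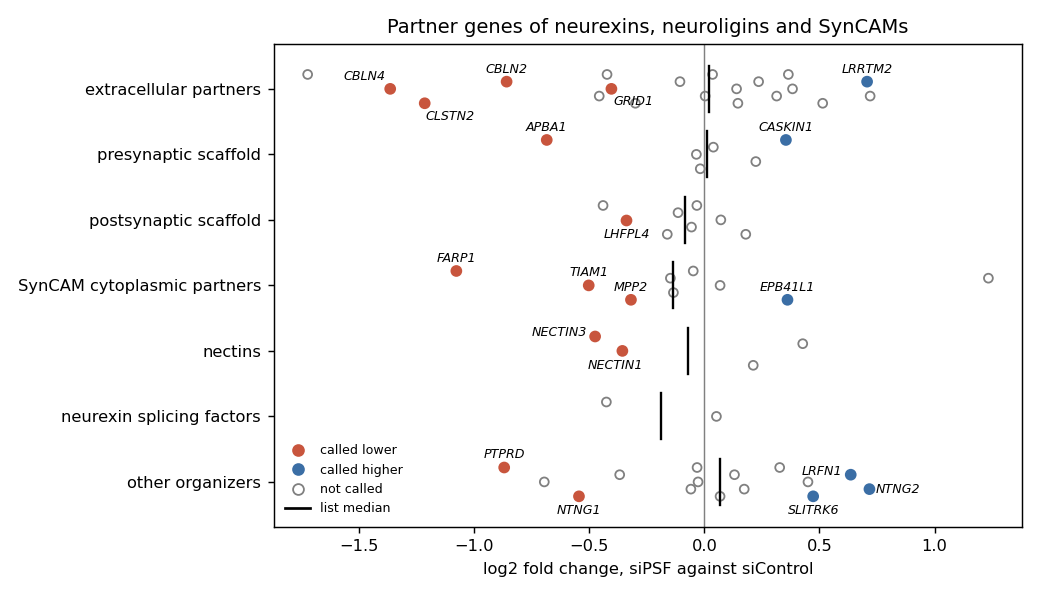
Log2 fold change of siPSF against siControl (horizontal axis) of the 64 partner genes tested, in 7 lists (rows, with points spread vertically for legibility). Red points were called lower (13 genes), blue points higher (6 genes) and open grey points neither, and a black bar marks each list's median, which lies between -0.19 and 0.07.

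Among these 64 genes, those whose log2 CPM followed the called adhesion genes most closely over the 6 libraries were found by Pearson's r, as a description over libraries that include the difference between the groups. For CADM2 they were TIAM1 (r = 0.99) and CLSTN2 (r = 0.97). For NLGN1 they were LHFPL4 (r = 0.94) and CBLN4 (r = 0.91), and for CADM1 they were PTPRD (r = 0.93) and NECTIN3 (r = 0.90).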

How the data were processed

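RNA-seq of SH-SY5Y cells was compared between siControl and siPSF, with 3 libraries in each group, grouped by the sample titles. The authors deposited read counts per RefSeq gene without normalization, and beside them FPKM values, counts scaled by transcript length and by mapped reads (called RPKM in the methods). The submitters' processing notes name Trimmomatic, HISAT2 2.1.0 and StringTie 2.1.3b, while the paper's methods name Bowtie 2 and TopHat, with hg38 as the genome, and which of them made the table was not settled here. For library construction a strand-specific mRNA kit is given per the labels, but the TruSeq RNA v2 kit, which does not keep strand, in the paper. Whether counting used strand is not given in the sources used here. The smallest count is 1, so genes without a read in some library were not analysed here.

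The counts were passed through filterByExpr and given TMM factors (0.964 to 1.053). The quasi-likelihood test of edgeR compared the groups, with no blocking on replicate number and with Benjamini-Hochberg adjustment over 19694 genes, and called at an adjusted p under 0.05. The standard error is the log2 fold change over the root of its F statistic. The common biological coefficient of variation was 12.6%. Replicates differed by a chi-square per degree of freedom of 20.8 or more, so none was counted as a repeat. Where p-values rest on these 6 libraries they measure the spread between them. Shares and ratios were tested by exact two-sided permutation.

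Genes named are SFPQ, the 9 members, the called genes of each partner list up to the 4 of smallest p (the 2 most expressed where none was called), and the 2 partner genes most like each called member. The members and lists were chosen with earlier results of these data known. Gene length and position are from RefSeq (14418 of 14469 protein-coding genes tested had a length), and exon overlap from GENCODE. Alternatives were DESeq2's size factors, no count filter, DESeq2's Wald test, limma on log2(FPKM + 0.5), on rescaled FPKM and on log2(FPKM + 0.1) (genes with a mean FPKM of at least 0.5), the replicate block and leaving out each library. The fit was tested on simulated data. The tools were edgeR 4.0.16, DESeq2 1.42.0 and limma 3.58.1 under R 4.3.3, and scipy 1.17.1, numpy 2.4.6, pandas 2.3.3 and matplotlib 3.10.9 under Python 3.11.15.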

Additional observations from a re-analysis of the deposited data

How the results depend on the processing

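Over all genes 2938 were called, and 1500 to 3140 with 1 library left out, the lowest counts coming without siControl replicate 2 (1500) and siControl replicate 3 (1754). NLGN1, CADM1 and CADM2 were called lower under DESeq2's size factors, without the count filter, under DESeq2's Wald test and under the block. Each of the 3 limma fits on FPKM with the filter called 1 member lower, CADM1, as NRXN3, NLGN1 and CADM2 lay under the mean FPKM of 0.5 and were not tested there. A limma fit on log2(FPKM + 0.1) without that filter, chosen after seeing the data, called CADM1 and CADM2. In it NLGN1 had a log2 fold change of -0.35 (limma adjusted p = 0.085). The means of NLGN1, 0.0481 FPKM in siControl and 0.0156 in siPSF, lay below the added 0.1, so that fit understates its fold change. DESeq2's Wald test called 1 member higher, NLGN3. Leaving out 1 library gave 2 to 3 members lower. Partner genes called lower ranged from 7 to 11 and called higher from 1 to 6 with a library left out, and each of the 4 limma fits called 1 higher. On rescaled FPKM the median of all genes moved to -0.16, and relative to it CADM3 at -0.10 and CADM4 at -0.13 were higher. In the other limma fits CADM4 was at -0.018 (log2(FPKM + 0.5)) and -0.019 (log2(FPKM + 0.1), with and without the filter). With a library left out CADM3 ranged from -0.047 to 0.10 and CADM4 from -0.10 to 0.17. The causes were not tested. In CPM in place of FPKM, 4 changes in share were larger by more than the spread between replicates, in percentage points 0.29 for NRXN2, -0.29 for NRXN3, -0.59 for NLGN1 and -2.13 for CADM2, and the other 5 moved by less.

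Deviations from the group means of same-numbered libraries correlated at -0.02, 0.06 and 0.06, so no effect shared by same-numbered libraries was seen. Whether such libraries were handled together is not given in the sources used here. With the replicate block 3029 genes were called, 3 of the 9 genes lower and 0 higher, with 13 partner genes lower and 4 higher.

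Precision is limited by depth for NRXN3 and NLGN1, with at most 141 reads in a library, by 3 libraries a group, and for CADM3 by the sources' differing kits, stranded or not.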

Other observations

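The number of counts behind 1 unit of FPKM, scaled to the median protein-coding gene of each library and taken relative to each gene's mean, spread by 0.818% over the 6 libraries for CADM4, 1.80% for CADM2 and 2.13% for NLGN2. It spread by 13.6% for CADM3, through the value of 0.894 in siPSF replicate 1, and by 33.5% for NLGN1, between 0.804 and 1.14. For NRXN3 the number in siPSF was 1.04 times that in siControl, with no overlap between the groups. Isoforms were not analysed here.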
